A study of Mus musculus with 8 samples.

Results

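The 8 Polycomb genes Ezh1, Ezh2, Eed, Suz12, Jarid2, Rnf2, Cbx7 and Kdm2b were followed across the H3K27ac landscape of mouse embryonic stem cells. Acetylation of histone H3 at lysine 27 (H3K27ac) marks active promoters and enhancers. A region was taken as belonging to one of these genes when the deposited table of regions named the gene as the nearest and placed the region at most 100 kb from its transcription start site (TSS). Of 112137 regions in the table, 122 met this rule: 29 of Jarid2, 27 of Kdm2b, 19 of Cbx7, 15 of Suz12, 14 of Ezh2, 9 of Eed, 8 of Rnf2 and 1 of Ezh1. A further 10 regions, all of Jarid2, lay beyond the limit. The last region inside it, at 99773 bases, held log2 H3K27ac levels of 8.78, 7.97, 8.84 and 8.59 in naive wild-type (WT), formative WT, naive double-knockout (DKO) and formative DKO cells, and the next region outside, at 102324 bases, held 9.35, 9.72, 10.75 and 9.81. All 122 regions were above 0 in every group for H3K27ac and for H3K4me1, a mark of enhancers and of the flanks of promoters, so none was lost to a filter on low values.

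Polycomb proteins repress genes through a pair of complex families. Polycomb repressive complex 2 (PRC2) methylates lysine 27 of histone H3, the residue that H3K27ac occupies, so that a given tail can carry the methyl marks or the acetyl mark but not both. Its catalytic subunit is Ezh2 or, more often in cells that divide little, Ezh1. Eed and Suz12 complete the core, with Eed binding the methylated tail, and Jarid2 is an accessory subunit that helps PRC2 find its targets. Polycomb repressive complex 1 (PRC1) ubiquitinates histone H2A through Rnf2, also called Ring1b. Cbx7 brings canonical PRC1 to methylated tails, and Kdm2b brings a variant PRC1 to unmethylated CpG islands. In pluripotent cells these complexes hold developmental genes in a silent but inducible state.

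H3K27ac was profiled by CUT&Tag, in which an antibody directs a transposase to the mark and the released fragments are sequenced. The 8 libraries fell into 4 groups of 2, prepared from separate cultures. WT cells are the R1 embryonic stem cell line, DKO cells carry knockouts of MLL3 and MLL4 (the H3K4 methyltransferases encoded by Kmt2c and Kmt2d) with no parental line or clone named in their genotype label, and formative cells were collected 63 hours after LIF2i was withdrawn, with no treatment given in the naive labels. The deposited table gives 1 pooled log2 value per group, with no depth or library values in the columns used, so the values carry no SD. A replicated test exists for formative against naive WT only, as the DiffBind fold and adjusted p-value in the authors' deposited table. Regions are said to have risen or fallen where that value was under 0.05. For the other comparisons a region is called higher or lower at a pooled difference of at least 2-fold, with no test. The table also carries H3K4me1 levels in the same 4 groups, and RNA levels of the nearest gene in WT, DKO and 2 genotypes headed CKO and dCD, which the labels do not define. These come from libraries outside the 8 and are given as the authors' values, on a log scale whose base the table does not state and which is read here as 2.

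Kmt2c RNA was lower in DKO than in WT cells by a log2 difference of -1.15 in the naive and -0.91 in the formative state, and Kmt2d RNA by -0.72 and -0.84. All 6 markers of naive pluripotency (Zfp42, Esrrb, Nanog, Klf4, Tbx3 and Tfcp2l1) had RNA values, at log2 levels of 7.53 to 9.44 in naive WT and 4.62 to 6.91 in formative WT cells, and 6.87 to 9.38 and 5.15 to 7.23 in DKO. The 3 formative markers with values were at -0.27 to 5.15 in naive and 5.82 to 8.39 in formative WT cells, with -0.35 to 4.33 and 5.40 to 8.86 in DKO. Pluripotency markers shared by both states reached 7.94, 7.58, 7.80 and 7.82 in naive WT, formative WT, naive DKO and formative DKO cells, although Pou5f1, a defining marker, was listed at only 3.25 in naive and 2.84 in formative WT cells. Of other cell types, 2 of 5 fibroblast markers had values, all at or under 3.00 in the WT and DKO groups, with Col1a2 at 3.45 in formative dCD cells. Of the primitive endoderm markers 1 of 3, Gata6, had values, all at or under 0.26 in the WT and DKO groups and 0.36 in naive dCD cells. The single trophoblast marker of 3 with values, Krt18, was at 2.52 in naive WT and at 5.17, 5.48 and 5.29 in formative WT, naive DKO and formative DKO cells, and its part in the results was not tested. In such bulk profiles fewer cells of a type and less signal per cell cannot be told apart.

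In the WT transition from the naive to the formative state, H3K27ac at the Polycomb genes moved down more often than up. By DiffBind in the authors' deposited table, 36 of the 122 regions fell (29.5%, against 15.8% of all 112137 regions) and 11 rose (9.02%, against 20.8% of all regions). In the authors' deposited table the DiffBind log2 folds had a median of -0.48 over the 122 regions and 0.56 over all regions. For PRC2 the counts of regions that rose and fell by DiffBind in the authors' deposited table were 1 and 0 for Ezh1, 0 and 3 for Ezh2, 0 and 4 for Eed, 0 and 6 for Suz12, and 1 and 11 for Jarid2. Among PRC1 genes they were 0 and 3 for Rnf2, 2 and 5 for Cbx7, and 7 and 4 for Kdm2b in the authors' deposited table. Kdm2b alone held most of the rises, and Jarid2 the largest number of falls among these 8 genes. These DiffBind counts in the authors' deposited table are not scaled to the number of regions per gene. Falls were 11 of 29 regions at Jarid2, 6 of 15 at Suz12, 4 of 9 at Eed and 3 of 8 at Rnf2. They were 5 of 19 at Cbx7, 3 of 14 at Ezh2 and 4 of 27 at Kdm2b, where 7 rose. In the authors' deposited table the median of these log2 folds was lowest for Eed at -1.17, followed by Suz12 at -0.91, Rnf2 at -0.86, Jarid2 at -0.81 and Cbx7 at -0.53, while Ezh2 stood at 0.06, Kdm2b at 0.89 and the single Ezh1 region at 1.80.

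**Figure D1:**
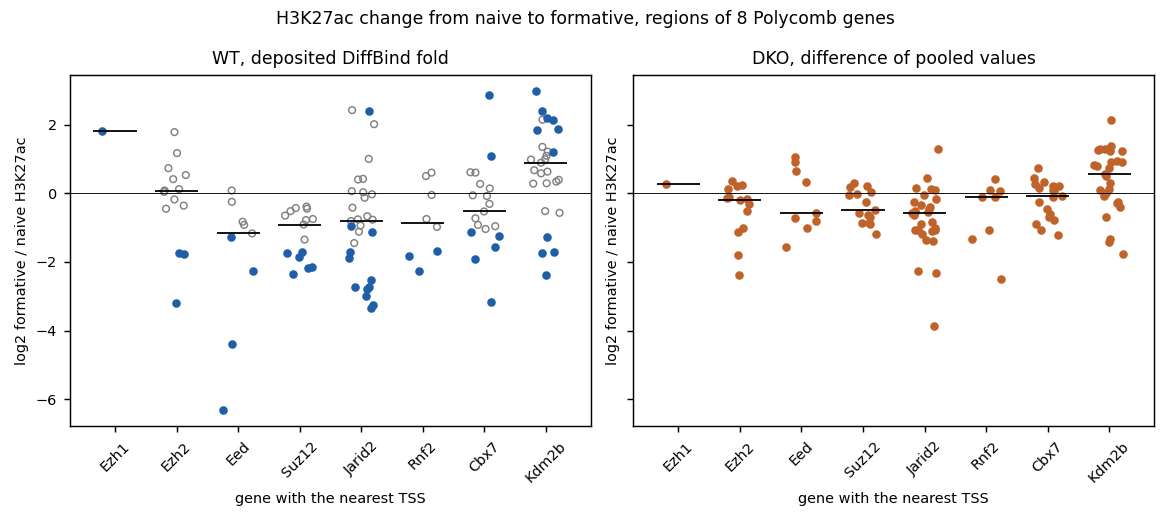
Each point is a region of the gene on the x axis, and the y axis is the log2 ratio of formative to naive H3K27ac. The left panel plots the deposited DiffBind fold in WT cells (filled, adjusted p under 0.05; open, not called), the right panel the difference of pooled values in DKO cells, and bars are medians per gene; the WT medians of Eed, Suz12, Rnf2, Jarid2 and Cbx7 lie below 0 and those of Kdm2b and Ezh1 above 0.

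Among the 122 regions, 7 held an annotated TSS of their own gene, 1 for each gene except Kdm2b. By DiffBind in the authors' deposited table, 6 of the 7 fell in formative WT cells and 1, that of Ezh1, rose, whereas 31.0% of all regions that hold a TSS of their gene fell and 9.20% rose. The median pooled difference was -1.77 over the 7 regions and -0.45 over all such regions, of which 8748 were within 100 kb and above 0 in every group.

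At the Ezh2 promoter (chr6:47593860-47596186 in mm10), log2 H3K27ac was 9.48 in naive WT, 7.63 in formative WT, 9.45 in naive DKO and 8.43 in formative DKO cells. Naive cells of both genotypes were high, formative WT cells were lowest and formative DKO cells lay between; the WT fall had a DiffBind log2 fold -1.73 with an adjusted p of 1.56e-08 in the authors' deposited table. At the Ezh1 promoter (chr11:101225782-101226777) the order was opposite, with 6.98 in naive WT, 8.89 in formative WT, 8.05 in naive DKO and 8.31 in formative DKO cells (DiffBind log2 fold 1.80 with an adjusted p of 0.00714 in the authors' deposited table). The alternative catalytic subunits of PRC2 thus differed in the direction of their promoter acetylation in WT cells.

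The core subunits followed Ezh2. The Suz12 promoter region (chr11:79991432-79994526) held 8.89 in naive WT, 7.12 in formative WT, 8.48 in naive DKO and 8.23 in formative DKO cells (DiffBind log2 fold -1.71 with an adjusted p of 2.13e-06 in the authors' deposited table). The Eed TSS lay in a wide region (chr7:89971940-89982231) that also overlaps the noncoding gene E230029C05Rik, with levels of 7.34 in naive WT, 5.09 in formative WT, 6.94 in naive DKO and 6.13 in formative DKO cells and a DiffBind log2 fold -2.26 with an adjusted p of 3.43e-29 in the authors' deposited table. For the accessory subunit Jarid2, the promoter (chr13:44728242-44731590) held 7.72 in naive WT, 6.06 in formative WT, 8.32 in naive DKO and 7.75 in formative DKO cells (DiffBind log2 fold -1.89 with an adjusted p of 1.71e-06 in the authors' deposited table). In all 3 genes formative WT cells had the lowest of the 4 levels.

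Both PRC1 genes with a covered TSS fell as well. The Rnf2 region (chr1:151499931-151501175) held 9.77 in naive WT, 7.85 in formative WT, 10.36 in naive DKO and 9.04 in formative DKO cells (DiffBind log2 fold -1.84 with an adjusted p of 0.00019 in the authors' deposited table). The Cbx7 region (chr15:79931833-79936266) held 8.07 in naive WT, 6.84 in formative WT, 8.18 in naive DKO and 8.10 in formative DKO cells (DiffBind log2 fold -1.23 with an adjusted p of 7.1e-05 in the authors' deposited table). At Cbx7 formative WT cells stood alone, below 3 groups that lay close together.

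Kdm2b has annotated starts 88.7 kb apart, and no region named for Kdm2b covered any of them. The more distal starts of the gene lay in a region that the table assigned to the neighbouring noncoding gene A930024E05Rik (chr5:122989227-122995573). That region held 7.06, 6.35, 6.89 and 7.01 in naive WT, formative WT, naive DKO and formative DKO cells, and fell in formative WT cells by a DiffBind log2 fold of -0.64 (adjusted p = 0.007) in the authors' deposited table. It is not counted among the 122.

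**Figure D2:**
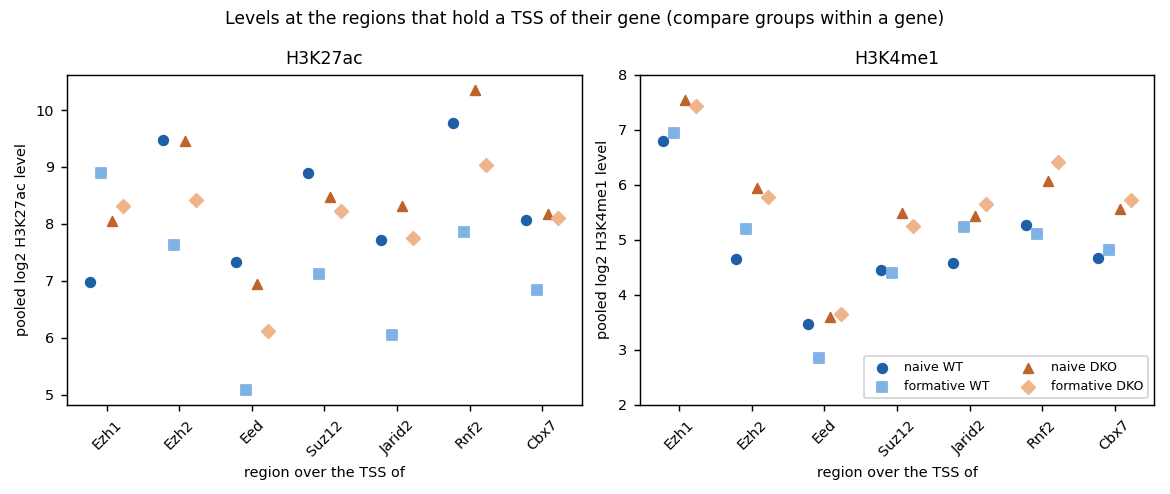
Pooled log2 H3K27ac (left) and H3K4me1 (right) at the 7 regions that hold a TSS of the gene on the x axis, 1 point per group and so with no error bar. Formative WT cells have the lowest H3K27ac at every gene except Ezh1, and H3K4me1 is higher in DKO than in WT cells of the same state at all 7.

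In DKO cells the same promoters differed less between states. The median difference from naive to formative DKO was -0.58 over the 7 regions, against -0.21 over all regions that hold a TSS of their gene. Rnf2 and Ezh2 were at least 2-fold lower, as were 9.82% of all such regions. The Ezh2 difference of -1.02 was -0.96, -0.86 and -0.82 centred on all regions, centred on promoters and after quantile normalization, so that 1 of the 7 was left at that fold. In the naive state DKO and WT promoters had a median difference of 0.11 (0.53 over all such regions), which became -0.47 when each group was centred on its promoters. In the formative state DKO levels exceeded WT at 6 of the 7, at least 2-fold at 5, with a median of 1.1. Centred on promoters 6 were still above WT and 0 of the 7 at least 2-fold, with Rnf2 at 0.40 in place of 1.19 and Suz12 at 0.32 in place of 1.1. Of all such regions 41.9% were at least 2-fold higher in formative DKO, with a median of 0.82. The formative median stayed above 0 under each scaling, from 0.32 centred on promoters to 2.01 after quantile normalization. H3K4me1 at the 7 promoters was above WT in DKO cells at 7 of 7 in both states, with medians of 0.86 in naive and 0.81 in formative cells. This direction was also the usual one, at 86.7% and 88.1% of all regions that hold a TSS of their gene.

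The promoter sequences of Ezh2 and Suz12, where H3K27ac fell, are set beside that of Ezh1, where it rose. They are RefSeq promoters of GRCm38.p6 (the assembly of mm10), each running from 250 bases before to 50 after the start, and capitals mark the matched motifs.
Ezh2, chr6:47594981-47595280, minus strand: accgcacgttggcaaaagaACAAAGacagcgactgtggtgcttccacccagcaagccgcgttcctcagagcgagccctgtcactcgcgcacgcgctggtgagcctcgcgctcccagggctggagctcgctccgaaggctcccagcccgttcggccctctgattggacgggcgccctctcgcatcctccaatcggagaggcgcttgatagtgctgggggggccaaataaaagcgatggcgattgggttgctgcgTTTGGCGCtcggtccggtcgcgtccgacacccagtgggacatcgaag
Suz12, chr11:79992856-79993155, plus strand: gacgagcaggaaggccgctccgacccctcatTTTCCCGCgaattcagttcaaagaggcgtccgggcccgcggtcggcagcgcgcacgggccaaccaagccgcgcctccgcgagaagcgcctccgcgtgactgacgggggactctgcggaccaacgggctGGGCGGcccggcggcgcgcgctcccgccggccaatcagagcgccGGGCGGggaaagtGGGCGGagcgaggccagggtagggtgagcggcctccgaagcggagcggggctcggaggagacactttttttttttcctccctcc
Ezh1, chr11:101226414-101226713, minus strand: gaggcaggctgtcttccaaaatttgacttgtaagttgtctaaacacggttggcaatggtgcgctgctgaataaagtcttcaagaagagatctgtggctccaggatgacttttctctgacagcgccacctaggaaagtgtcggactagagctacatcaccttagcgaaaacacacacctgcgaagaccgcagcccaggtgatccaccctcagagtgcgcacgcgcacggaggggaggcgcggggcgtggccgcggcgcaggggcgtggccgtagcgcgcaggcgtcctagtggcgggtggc
In Ezh2 the capitals are a SOX match, ACAAAG, and an E2F match, TTTGGCGC. In Suz12 they are the E2F match TTTCCCGC and 3 SP/KLF matches, GGGCGG. None of the motifs searched was found in the Ezh1 window. The Eed promoter window also held none of them, although the Eed TSS region fell (DiffBind log2 fold -2.26 in the authors' deposited table). The wider deposited Ezh1 region, which rose, held 2 GGGCGG matches. A relation between motifs and the direction of change was not tested.

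All 8 genes were matched in the promoter table, with 12 promoters among its 32851. Observed over expected CpG was 1.00 for Ezh2, 1.09 for Suz12 and 0.88 for Ezh1, ran from 0.76 to 1.09 over the 12, and had a median of 0.38 over all promoters in the table. The E2F motif TTTGGCGC was found in 0.514% of all promoters and TTTCCCGC in 1.07%, on either strand, each in 1 of the 12. GGGCGG was in 8 of the 12 and 35.7% of all promoters, and ACAAAG in 3 of the 12 and 18.7% of all. The 12 are not separate sequences. Kdm2b promoters at chr5:122900301-122900600 and chr5:122900318-122900617 overlap, so their shared GGGCGG and ACAAAG matches are counted in both. No member promoter held the NRF1 motif GCGCATGCG (1.75% of all promoters), the ETS motif CCGGAAG (8.86%), the YY1 motif AAGATGGCG (1.40%), the E-box CACGTG (7.15%) or the octamer ATTTGCAT (1.74%). A match is a string of letters in the window, not a measured site. Of the deposited regions, the 7 that hold a TSS had a median observed over expected CpG of 0.81 and a GC content of 55.8%, and the other 115 had 0.21 and 45.3%.

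The single Ezh1 region was its promoter. Of the other Ezh2 regions, a pair fell. An intronic region 44.5 kb into the locus (chr6:47550067-47550954, overlapping the noncoding gene Gm26625) held 8.88 in naive WT, 5.79 in formative WT, 8.46 in naive DKO and 6.07 in formative DKO cells, low in the formative state of both genotypes (DiffBind log2 fold -3.18 with an adjusted p of 0.000122 in the authors' deposited table). An upstream region 7.0 kb from the start (chr6:47601368-47602593) held 8.73 in naive WT, 6.96 in formative WT, 6.96 in naive DKO and 6.43 in formative DKO cells, high in naive WT cells and lower in the other 3 groups (DiffBind log2 fold -1.78 with an adjusted p of 0.0458 in the authors' deposited table). Its naive DKO level was -1.77 from WT on the log2 scale, the largest naive genotype difference at Ezh2, and its H3K4me1 was 7.39, 7.13, 6.34 and 6.53 in the same order of groups. The largest formative genotype difference, -1.63, was at an intronic region 54.1 kb from the start, with 7.52 in naive WT, 9.47 in formative WT, 8.98 in naive DKO and 7.84 in formative DKO cells. There formative WT cells were highest, without passing the test (DiffBind log2 fold 1.78 with an adjusted p of 0.0557 in the authors' deposited table). A region 70.1 kb from the Ezh2 start lies within the neighbouring gene Cul1.

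Eed carried the largest fall of all 122 regions. A narrow stretch over a coding exon of Eed (chr7:89971360-89971759), 9.4 kb from the start, held 10.69 in naive WT, 4.09 in formative WT, 10.76 in naive DKO and 9.19 in formative DKO cells. Both naive groups and formative DKO cells were high and formative WT cells alone were low, so that formative DKO exceeded formative WT by 5.10 on the log2 scale, the largest formative genotype difference among the members. The DiffBind result for this region in the authors' deposited table was log2 fold -6.32 with an adjusted p of 3.74e-05. Its H3K4me1 differed less, at 8.20, 7.37, 7.66 and 7.67 in the same order of groups. The neighbouring region on one side (chr7:89970632-89971248) held 8.72, 9.10, 8.04 and 9.08 and was not called (DiffBind log2 fold 0.08 with an adjusted p of 0.952 in the authors' deposited table). The wide TSS region on the other side fell, as given above. The central 300 bases of the exon region are shown because its fall was the steepest at any of the 8 genes (GRCm38.p6 genome, RefSeq, plus strand).
Eed, chr7:89971410-89971709: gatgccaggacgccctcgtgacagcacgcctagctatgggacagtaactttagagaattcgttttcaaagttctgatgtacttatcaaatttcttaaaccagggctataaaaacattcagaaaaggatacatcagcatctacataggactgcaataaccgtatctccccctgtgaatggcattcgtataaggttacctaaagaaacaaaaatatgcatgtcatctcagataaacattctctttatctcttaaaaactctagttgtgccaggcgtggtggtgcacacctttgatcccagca
No motif of the list was found in it, its observed over expected CpG was 0.56, and 28.2% of the whole region was repeat-masked, against a median of 29.4% over the 115 regions without a TSS.

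Upstream of Eed, in sequence that the table calls intergenic and that overlaps E230029C05Rik, 2 regions differed in another way. At 17.7 kb (chr7:89996489-90000856) levels were 7.71 in naive WT, 3.54 in formative WT, 3.75 in naive DKO and 4.39 in formative DKO cells, high in naive WT cells alone (DiffBind log2 fold -4.39 with an adjusted p of 2.56e-37 in the authors' deposited table). At 4.7 kb (chr7:89985264-89986059) levels were 8.11 in naive WT, 8.24 in formative WT, 4.85 in naive DKO and 5.77 in formative DKO cells, close in both WT states (DiffBind log2 fold -0.25 with an adjusted p of 0.826 in the authors' deposited table) and lower in both DKO states. The naive DKO differences from WT were -3.96 and -3.26, the lowest among the 122 regions. H3K4me1 at the nearer region was 7.09, 6.81, 7.03 and 6.47 in the same order of groups, within 0.06 between genotypes in the naive state.

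Every one of the 15 Suz12 regions had a DiffBind fold below 0 in the authors' deposited table, from -0.39 to -2.34, and 6 of them fell. The upstream region, 12.3 kb from the start (chr11:79978956-79982688), held 8.04 in naive WT, 5.81 in formative WT, 6.01 in naive DKO and 5.52 in formative DKO cells, again high in naive WT cells alone (DiffBind log2 fold -2.16 with an adjusted p of 1.04e-17 in the authors' deposited table). Its H3K4me1 was 4.89, 4.87, 3.40 and 3.30 in the same order, lower in DKO cells of both states. The steepest Suz12 fall lay in an intron 35.3 kb from the start (chr11:80027535-80029263), with 8.14 in naive WT, 5.54 in formative WT, 7.31 in naive DKO and 7.29 in formative DKO cells (DiffBind log2 fold -2.34 with an adjusted p of 7.41e-07 in the authors' deposited table). In that region formative DKO cells stood 1.75 above formative WT, the largest formative genotype difference at Suz12. It is among 6 intronic regions that overlap the noncoding gene Gm26563, so the gene cannot be told apart from its neighbour there. Over the 15 regions the median pooled difference between states was -1.16 in WT and -0.50 in DKO cells.

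The Jarid2 locus is described upstream of its start and within the gene. Pooled H3K27ac was lower in formative than in naive WT cells at the promoter and at each intronic region up to 34.5 kb. The WT change thus did not turn at the start. Upstream, 8 intergenic regions reached from 10.9 to 95.2 kb, and 6 of them fell by DiffBind in the authors' deposited table (against 23.6% of all intergenic regions), with a median pooled difference of -2.79. The fall with the smallest adjusted p lay 10.9 kb upstream (chr13:44714972-44724707), with 6.96 in naive WT, 4.08 in formative WT, 6.01 in naive DKO and 3.70 in formative DKO cells (DiffBind log2 fold -3.24 with an adjusted p of 1.31e-53 in the authors' deposited table). At 49.4 kb upstream (chr13:44680710-44681977) levels were 9.03 in naive WT, 6.23 in formative WT, 6.39 in naive DKO and 6.0 in formative DKO cells. As deposited the largest formative genotype difference was 33.5 kb upstream (chr13:44696838-44697788), where levels were 9.06 in naive WT, 6.55 in formative WT, 7.69 in naive DKO and 3.83 in formative DKO cells and formative DKO cells lay -2.72 from formative WT. This was -2.09 centred on all regions and -1.66 after quantile normalization. At 56.9 kb upstream (chr13:44673210-44674596) formative DKO cells lay 2.16 above formative WT as deposited. That difference was 2.79 and 3.36 under the same 2 scalings, the larger in size. In naive cells none of the 8 was higher in DKO than in WT as deposited, and 3 were at least 2-fold lower. Of all intergenic regions within 100 kb, 34.3% were above 0 and 39.2% at least 2-fold lower, with a median of -0.58. Centred on all regions 1 of the 8 was above 0, and after quantile normalization 3. The median of the 8 was -0.93, between -1.51 and -0.65 under the other scalings.

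Within the gene, the 20 intronic Jarid2 regions differed from the upstream ones in the naive genotype difference. In naive cells 18 of the 20 had more H3K27ac in DKO than in WT, 7 of them at least 2-fold, with a median of 0.61. Of all introns within 100 kb 50% were above 0 and 19.9% at least 2-fold higher, with a median of -0.001. Centred on promoters the Jarid2 median was 0.03, with 12 above 0 and 3 at least 2-fold. Between WT states their median was -0.30 (0.01 centred on promoters), with 4 falls and 1 rise by DiffBind in the authors' deposited table, where 13.2% of all introns fell and 19.4% rose. The rise, 67.9 kb from the start, held 6.48 in naive WT, 9.37 in formative WT, 8.01 in naive DKO and 6.91 in formative DKO cells (DiffBind log2 fold 2.38 with an adjusted p of 0.0452 in the authors' deposited table). The largest naive genotype difference of all 122 regions, 4.90, was 86.7 kb from the start (chr13:44817716-44818321). Its levels were 5.26 in naive WT, 9.21 in formative WT, 10.16 in naive DKO and 9.10 in formative DKO cells, low in naive WT cells alone, yet the WT change did not pass the test (DiffBind log2 fold 2.42 with an adjusted p of 0.16 in the authors' deposited table). Its H3K4me1 was 8.67, 8.19, 7.98 and 8.18 in the same order.

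H3K4me1 at Jarid2 had the opposite sign to H3K27ac in WT cells in its median. Its difference from naive to formative WT was above 0 at 21 of the 29 regions, with a median of 0.32, while the medians of Ezh2, Eed, Suz12, Rnf2, Cbx7 and Kdm2b lay between -0.29 and -0.75. Of all regions within 100 kb 39.3% were above 0, with a median of -0.20. At the 8 upstream Jarid2 regions this difference was above 0 at 7, with a median of 0.41 (52.1% and 0.04 over all intergenic regions). At the 20 intronic ones it was above 0 at 13, with a median of 0.14 (32.9% and -0.33 over all introns). In DKO cells the upstream regions held less H3K4me1 than in WT, with medians of -0.75 in the naive state and -1.26 in the formative state, where all 8 were below WT and 4 at least 2-fold (against 25.3% of all intergenic regions). Over all intergenic regions within 100 kb the medians were -0.38 and -0.37, and 34.0% were above WT in the formative state.

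Of the PRC1 genes, Rnf2 resembled the PRC2 core. Beside its promoter, falls were called at a region labelled 5'UTR 17.2 kb from the start (chr1:151482859-151484676), with 8.11 in naive WT, 6.48 in formative WT, 8.10 in naive DKO and 5.60 in formative DKO cells (DiffBind log2 fold -1.69 with an adjusted p of 0.000207 in the authors' deposited table), and 14.8 kb upstream (chr1:151515164-151516472), with 7.48 in naive WT, 4.82 in formative WT, 5.06 in naive DKO and 4.94 in formative DKO cells (DiffBind log2 fold -2.25 with an adjusted p of 0.0203 in the authors' deposited table). The upstream region was high in naive WT cells alone, as at Ezh2, Eed and Suz12, and its naive DKO level was -2.42 from WT. The largest formative genotype difference, 1.37, was in an intron 28 kb from the start, with 8.49 in naive WT, 7.63 in formative WT, 8.95 in naive DKO and 9.0 in formative DKO cells.

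Among the regions labelled intergenic, those of Cbx7 differed from most others in naive cells. The table calls 11 of its 19 regions intergenic, 1 of which holds the TSS, and all 11 lie inside the longest gene model of Cbx7 in the GENCODE annotation. In naive cells 10 of the 11 had more H3K27ac in DKO than in WT, 6 at least 2-fold, and in formative cells 10 of 11, again 6 at least 2-fold. Of all intergenic regions within 100 kb, 34.3% were above 0 and 15.4% at least 2-fold higher in naive cells, and 26.6% and 10.2% in formative cells. Since the 11 lie inside a gene model, introns are given too. Of all introns within 100 kb these shares were 50% and 19.9% in naive cells, and 31.4% and 9.83% in formative cells. Centred on promoters, 2 of the 11 were at least 2-fold higher in each state. The medians were 1.04 and 1.05, and stayed above 0 under each scaling, at 0.46 and 0.27 when centred on promoters. Their H3K4me1 medians for DKO against WT were 0.33 in naive and 0.82 in formative cells. These were -0.38 and -0.37 over all intergenic regions within 100 kb, and -0.36 and 0.04 over all introns. The largest naive difference at Cbx7, 2.62, was 30.4 kb upstream (chr15:79962475-79963695), where levels were 5.60 in naive WT, 8.51 in formative WT, 8.22 in naive DKO and 8.31 in formative DKO cells. Naive WT cells were low there and the other 3 groups close together, and WT cells rose between states (DiffBind log2 fold 2.87 with an adjusted p of 4.86e-05 in the authors' deposited table). A wide region 17.9 kb upstream (chr15:79946644-79954358) also rose, with 5.34 in naive WT, 6.36 in formative WT, 7.63 in naive DKO and 7.71 in formative DKO cells (DiffBind log2 fold 1.09 with an adjusted p of 1.66e-06 in the authors' deposited table).

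The steepest Cbx7 fall lay 8.7 kb upstream (chr15:79940874-79941846), with 9.90 in naive WT, 6.65 in formative WT, 9.72 in naive DKO and 8.93 in formative DKO cells (DiffBind log2 fold -3.16 with an adjusted p of 2.09e-07 in the authors' deposited table). Formative WT cells were low there and the other 3 groups higher, giving 2.28 for formative DKO against WT, the largest formative difference at Cbx7. At the gene's other end, a region in the 3'UTR (chr15:79916277-79916901) held 10.33 in naive WT, 8.15 in formative WT, 8.25 in naive DKO and 8.98 in formative DKO cells (DiffBind log2 fold -1.92 with an adjusted p of 0.00638 in the authors' deposited table), high in naive WT cells alone. A region beyond it with levels in the same order of groups of 8.65, 7.48, 7.29 and 7.57, overlaps Apobec3.

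Kdm2b had more rises in WT cells than each of the other 7 genes, a count not scaled to the number of regions. By DiffBind in the authors' deposited table, 7 of its 27 regions rose and 4 fell, beside 20.8% and 15.8% of all regions. Of the 27 Kdm2b regions 14 were measured from the first start and 13 from an internal start 88.7 kb downstream. Of the 14, 4 rose and 0 fell by DiffBind in the authors' deposited table, and 13 had a pooled difference above 0, with a median of 1.17. In the authors' deposited table, rises were called at 18.1% of all regions within 100 kb and falls at 16.0%, and 61.5% had a pooled difference above 0. The clearest of these was 19.7 kb from the first start (chr5:122967261-122971634), with 4.75 in naive WT, 6.61 in formative WT, 5.67 in naive DKO and 6.58 in formative DKO cells (DiffBind log2 fold 2.18 with an adjusted p of 4.6e-08 in the authors' deposited table). Of the 8 regions upstream of the internal start, 2 rose and 3 fell by DiffBind in the authors' deposited table. The 3 falls were neighbours, the strongest at chr5:122922636-122928922, with 7.48 in naive WT, 5.75 in formative WT, 6.67 in naive DKO and 5.97 in formative DKO cells (DiffBind log2 fold -1.73 with an adjusted p of 8.51e-14 in the authors' deposited table). The rise at chr5:122937612-122940324 had the largest naive genotype difference at Kdm2b, 2.05, with 5.38 in naive WT, 6.84 in formative WT, 7.43 in naive DKO and 7.52 in formative DKO cells (DiffBind log2 fold 1.83 with an adjusted p of 0.000281 in the authors' deposited table). Kdm2b thus held neighbouring regions whose pooled levels moved in opposite directions between the same groups.

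Downstream of the internal start, 2 regions close together also moved oppositely. At chr5:122889380-122890077 levels were 5.42 in naive WT, 9.43 in formative WT, 7.42 in naive DKO and 8.72 in formative DKO cells (DiffBind log2 fold 2.99 with an adjusted p of 0.00116 in the authors' deposited table). At chr5:122890565-122891205 they were 9.49 in naive WT, 6.92 in formative WT, 8.95 in naive DKO and 9.08 in formative DKO cells (DiffBind log2 fold -2.38 with an adjusted p of 0.0174 in the authors' deposited table), and formative DKO exceeded formative WT by 2.15. As deposited this was the largest formative difference at Kdm2b, close in size to -2.12 at chr5:122979664-122981240. Centred on promoters the first was 1.37 and the second -2.90. In formative cells the regions nearest the first start had a DKO against WT median of -0.22, which was 0.41 centred on all regions, 0.67 after quantile normalization and -1.01 centred on promoters. As deposited 4 of the 14 were at least 2-fold lower, against 36.9% of all regions within 100 kb, and centred on promoters 7.

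**Figure D3:**
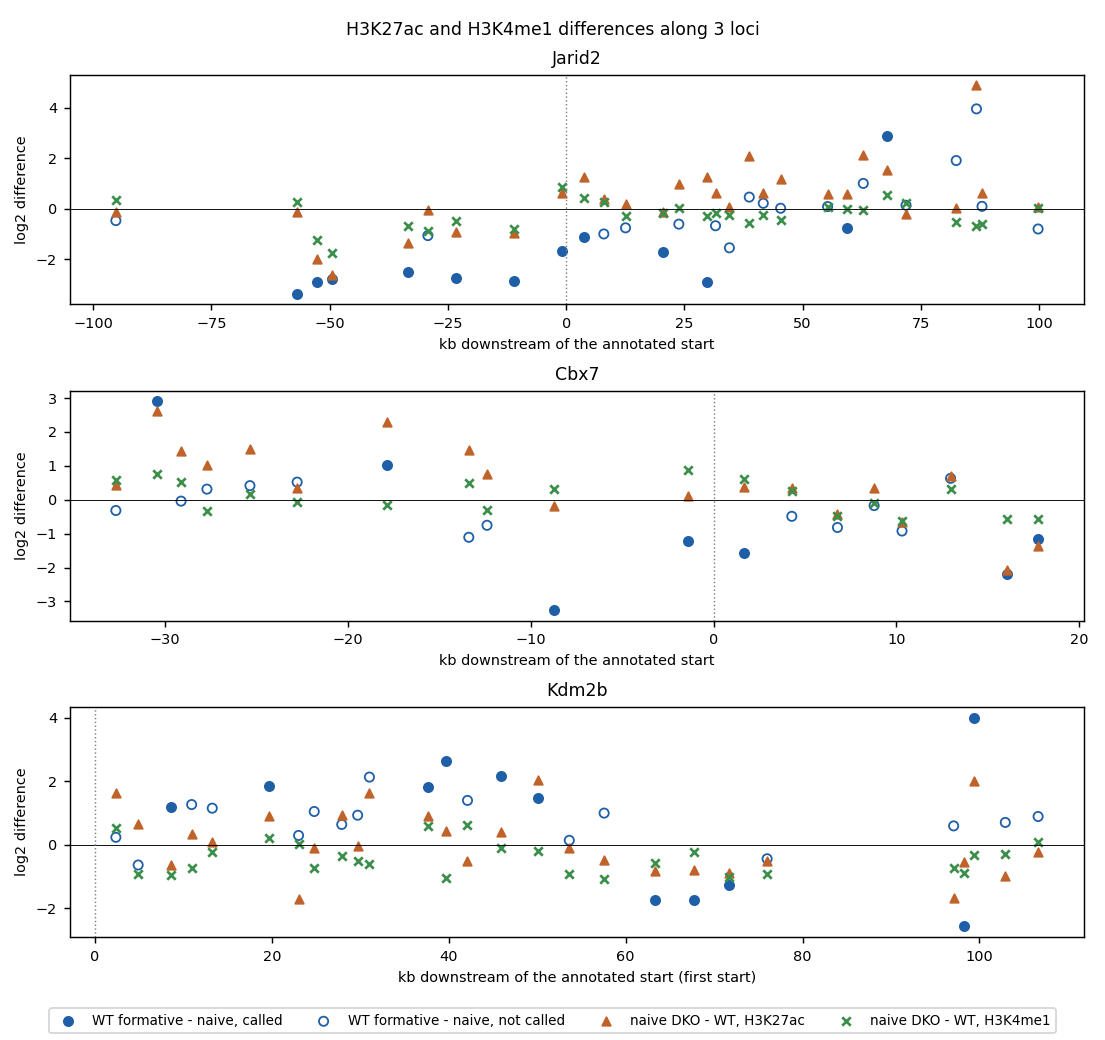
Differences at each region of Jarid2, Cbx7 and Kdm2b against its distance from the annotated start in kb, negative values lying upstream. Circles are formative against naive WT H3K27ac (pooled values, filled where the deposited DiffBind call was made), triangles naive DKO against WT H3K27ac, and crosses naive DKO against WT H3K4me1. At the 8 intergenic Jarid2 regions the triangles lie below 0. At the 11 Cbx7 regions labelled intergenic, which include its TSS region, 10 lie above 0 (both as deposited, and in the median under each scaling).

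In DKO cells the change of state at the Polycomb genes had a smaller median. From naive to formative DKO, 26 of the 122 regions were at least 2-fold lower (21.3%, against 17.9% of all regions) and 9 at least 2-fold higher (7.38%, against 16.6%). These counts became 16 and 14 when groups were centred on promoters, a scaling under which the shares of all regions were not counted. The member median was -0.19, and -0.07 over all 105643 regions above 0 in every group. Of the 36 regions that fell in WT cells by DiffBind in the authors' deposited table, 30 were also below 0 in DKO, 13 at least 2-fold, and the 36 had medians of -2.10 (WT) and -0.67 (DKO). Of the 11 that rose, 9 were above 0 in DKO, with medians of 1.91 and 0.26. Over all regions with such calls the medians were -2.00 and -0.60 for falls and 2.59 and 0.30 for rises. Shares by sign or fold in DKO were not counted over those regions, so the member counts are not a trait of these genes. These WT medians follow from the calls and are descriptions.

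Between genotypes, the counts at the Polycomb genes depended on the scaling of the groups. In naive cells 22 of the 122 regions were at least 2-fold higher in DKO (18.0%, against 19.2% of all regions) and 13 at least 2-fold lower (10.7%, against 26.3%), but 9 and 36 when groups were centred on promoters. The member median was 0.06 as deposited and -0.51 centred on promoters. Over all regions it was -0.10 as deposited and -0.68 centred on promoters. In formative cells 24 regions were at least 2-fold higher (19.7%, against 11.2% of all regions) and 12 lower (9.84%, against 39.3%). These became 54 and 5 centred on all regions, 62 and 5 after quantile normalization, and 6 and 37 centred on promoters. The shares of all regions are as deposited in both states and were not counted under the other scalings. The rescaled counts therefore do not show whether the members differ from other regions. The formative median was 0.25 for the members and -0.63 for all regions as deposited. Centred on promoters both were below 0, at -0.54 and -1.42, a shift that is the same for each region. No test compares the members with other regions.

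The intergenic regions other than those of Cbx7 were mostly lower in naive DKO than in naive WT cells. This subset was chosen after its values were seen. With Cbx7 kept, the naive median of the 25 intergenic regions was -0.14, with 8 at least 2-fold lower. Of the 25, 11 were above 0, against 34.3% of all intergenic regions within 100 kb. Of the 14 regions without Cbx7 (8 of Jarid2, 2 of Ezh2, 2 of Eed, 1 of Suz12 and 1 of Rnf2), 13 had less H3K27ac in naive DKO than in naive WT. After quantile normalization 4 of the 14 were above 0. As deposited 8 of the 14 were at least 2-fold lower, with none at least 2-fold higher. Their median was -1.57, from -2.15 to -1.30 under the other scalings, beside -0.58 over all intergenic regions within 100 kb, of which 39.2% were at least 2-fold lower. In the WT transition 10 of the 14 fell and 0 rose by DiffBind in the authors' deposited table, where 23.6% of all intergenic regions within 100 kb fell and 15.9% rose. Formative DKO and formative WT lay closer, with a median of -0.20 that turned to 0.43 centred on all regions and 1.03 after quantile normalization, and was -0.98 centred on promoters. H3K4me1 at the 14 was lower in DKO cells, by medians of -0.78 in the naive and -0.90 in the formative state, with 5 at least 2-fold lower in each, against 24.0% and 25.3% of all intergenic regions.

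**Figure D4:**
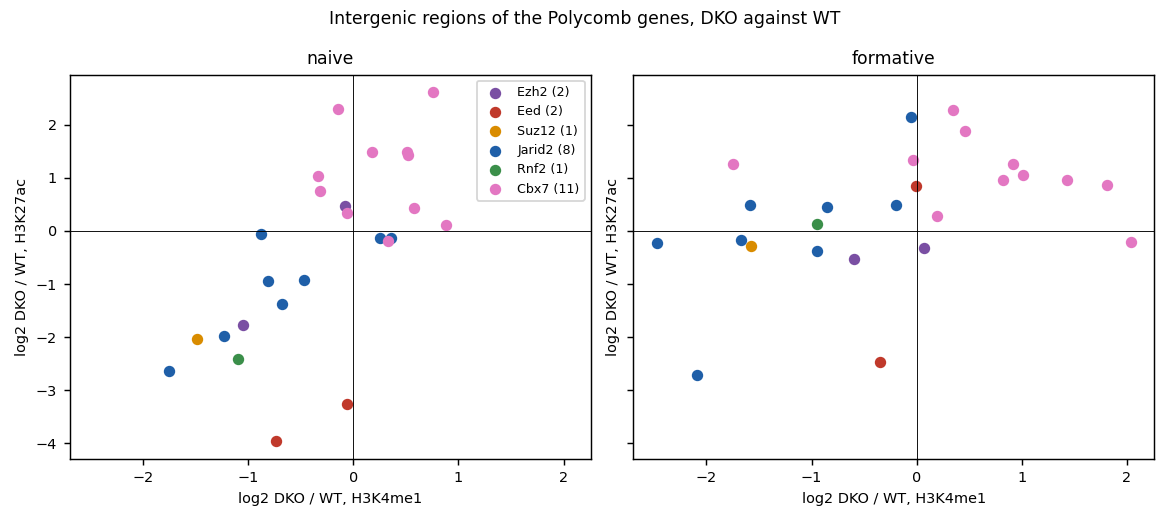
DKO against WT differences of H3K27ac (y axis, log2) and H3K4me1 (x axis, log2) at the 25 regions the table calls intergenic, in naive (left) and formative (right) cells, coloured by gene. In naive cells the Jarid2, Eed, Suz12 and Rnf2 regions lie below 0 on the y axis and 10 of the 11 Cbx7 regions above it.

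Across all 122 regions H3K4me1 differed less than H3K27ac. From naive to formative WT cells 24 regions were at least 2-fold lower (19.7%, against 15.5% of all 111990 regions above 0 in every H3K4me1 group) and 0 higher (against 5.86%). In DKO cells 1 was lower (0.82%, against 2.90%) and 1 higher (against 2.71%). Between genotypes, 12 regions were at least 2-fold lower in naive DKO (9.84%, against 18.7%) and 2 higher (1.64%, against 4.99%). In formative cells 7 were lower (5.74%, against 16.0%) and 11 higher (9.02%, against 10.5%). Over the 122 regions the change of state in WT cells had a correlation between H3K27ac and H3K4me1 of -0.02 (0.19 over all regions), and the naive genotype difference of 0.34 (0.27 over all regions). These are descriptions across regions that share their libraries and, in part, their genes.

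RNA of all 8 genes was listed in every group, with a range between the highest and lowest groups of 0.54 for Suz12 to 1.17 for Eed on the log2 scale. Levels are the authors' log2 values, 1 per group, and are compared within a gene only. Ezh1 RNA was at 4.94 in naive and 4.91 in formative WT cells, 4.71 and 4.93 in CKO, 4.21 and 4.34 in DKO, and 4.86 and 4.63 in dCD; it was lowest in the DKO groups. Ezh2 RNA was at 7.72 in naive and 7.52 in formative WT cells, 7.95 and 7.76 in CKO, 8.26 and 8.01 in DKO, and 8.66 and 8.35 in dCD, higher in dCD and in DKO than in WT in both states. The WT difference of Ezh2 RNA between states was -0.20 on the log2 scale beside the fall of -1.73 by DiffBind at its promoter in the authors' deposited table. Eed RNA was at 8.71 in naive and 7.76 in formative WT cells, 8.74 and 8.04 in CKO, 7.75 and 7.89 in DKO, and 8.92 and 7.75 in dCD: naive DKO cells alone of the naive groups had the low level of the formative groups. Its log2 difference between states was -0.95 in WT and 0.14 in DKO. Suz12 RNA was at 6.73 in naive and 6.5 in formative WT cells, 6.96 and 6.57 in CKO, 6.96 and 6.70 in DKO, and 6.86 and 6.43 in dCD, the narrowest range of the 8. Jarid2 RNA was at 8.54 in naive and 8.39 in formative WT cells, 8.89 and 8.12 in CKO, 8.77 and 8.68 in DKO, and 8.92 and 8.52 in dCD, lower in formative than in naive cells of each genotype.

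Among the PRC1 genes, Rnf2 RNA was at 7.91 in naive and 7.47 in formative WT cells, 7.97 and 7.33 in CKO, 7.5 and 7.78 in DKO, and 7.74 and 7.45 in dCD; it was lower in formative than in naive cells except in DKO. Cbx7 RNA was at 6.13 in naive and 5.93 in formative WT cells, 5.69 and 6.34 in CKO, 5.64 and 6.72 in DKO, and 6.03 and 6.39 in dCD, highest in formative DKO cells and lowest in naive DKO cells, a difference between states of 1.08. Its formative DKO level exceeded formative WT by 0.79, in the direction of the median H3K27ac difference at its regions labelled intergenic, which include its promoter. Its naive DKO level was -0.48 from naive WT, opposite in sign to the naive median at those regions. Kdm2b RNA was at 4.02 in naive and 4.52 in formative WT cells, 4.56 and 4.48 in CKO, 3.51 and 4.33 in DKO, and 4.12 and 3.91 in dCD, higher in formative than in naive cells in WT and DKO but not in CKO and dCD. Over the 9781 genes with RNA values, the lower and upper 5% limits of the difference between states were -1.52 and 2.39 in WT and -1.02 and 2.11 in DKO, and of DKO against WT -1.67 and 1.35 in naive and -1.0 and 1.07 in formative cells. Every member lay inside these limits in each of these comparisons.

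**Figure D5:**
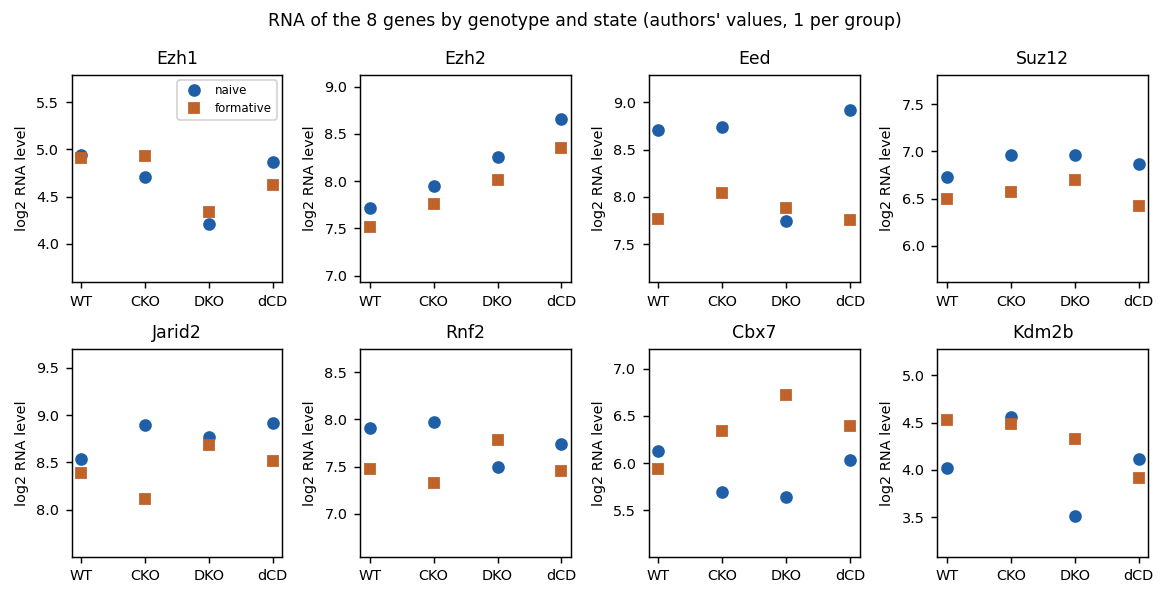
RNA level of each gene (log2, the authors' values, 1 per group) by genotype on the x axis, circles for naive and squares for formative cells; each panel spans the same range of log2 units. Eed shows the naive and formative values together only in DKO, and Cbx7 shows its widest gap between states in DKO.

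The RNA patterns closest to each gene over the 8 groups, by Euclidean distance of centred log2 levels among 4883 genes in the upper part of the expression range, were those of Vars and Ankrd28 for Ezh1 (distances 0.31 and 0.33), Stag1 and Fam3c for Ezh2 (0.29 and 0.34) and Tnfrsf21 and Msh6 for Eed (0.32 and 0.37). They were Wipf2 and Bcas2 for Suz12 (0.10 and 0.20) and Ppp6r1 and Ykt6 for Jarid2 (0.26 and 0.26). For PRC1 they were Ubap1 and Rbm18 for Rnf2 (0.24 and 0.28), Lig4 and Cfap20 for Cbx7 (0.26 and 0.36) and Msantd2 and Smarcd1 for Kdm2b (0.45 and 0.48). A flat pattern lay at a distance of 0.55 from Suz12 and 1.33 from Eed.

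Of 38 other Polycomb genes, 34 had 285 regions within 100 kb. By DiffBind in the authors' deposited table, falls were called at 77 of these regions and rises at 24 in formative WT cells, with 13 genes holding falls alone, 9 rises alone, 4 both and 8 neither. Over all regions 15.8% fell and 20.8% rose. Among 16 regions labelled promoters 6 fell and 0 rose, and of all regions so labelled within 100 kb 26.3% fell and 9.70% rose. These included Aebp2 and Epop, PRC2 accessory subunits, at DiffBind log2 folds of -1.77 (adjusted p = 6.62e-11) and -2.06 (adjusted p = 1.22e-05) in the authors' deposited table, and Pcgf1, the partner of Kdm2b in variant PRC1, at -1.74 (adjusted p = 0.00016). In naive cells 35 of the 285 regions were at least 2-fold higher in DKO (12.3%, against 19.2% of all regions) and 96 lower (33.7%, against 26.3%), as deposited and with no other scaling tried. Aebp2 alone held 52 of the 285 regions and 33 of the 96 lower ones, and the median of the medians per gene was -0.11. In formative cells the counts over the 285 were 45 (15.8%, against 11.2%) and 84 (29.5%, against 39.3%), with 26 of the 84 at Aebp2. From naive to formative DKO they were 43 (15.1%, against 16.6%) and 48 (16.8%, against 17.9%). At the promoters in formative cells 7 were at least 2-fold higher in DKO (40.4% of all regions labelled promoters were) and 0 lower (against 11.5%), with Phf1, a PRC2 accessory subunit, at 1.93, Rbbp4, a histone-binding subunit, at 1.70 and Lcorl at 1.39. In naive cells 5 promoters were higher (against 30.9%), led by E2f6 at 1.5, Phf1 at 1.47 and Ring1, the paralog of Rnf2, at 1.42, and 1, that of Aebp2, was lower at -1.68 (against 8.13%). From naive to formative DKO, the promoters of Yaf2 (1.69) and Aebp2 (1.19) were higher and that of Epop (-1.61) was lower.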

How the data were processed

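H3K27ac CUT&Tag was measured in 8 libraries (4 groups of 2). The authors deposited a table with 1 pooled log2 level per region and group, log2 folds and, for the WT states, a DiffBind p-value with its adjusted p-value, per the file headers. Trim Galore, Bowtie2, SEACR, DiffBind, deepTools and the build mm10 are named per the submitters' processing notes; versions, roles, scaling between groups and total counts (not given in the sources used here) leave the depth unknown with no interval possible. The 12 H3K4me1 and RNA level columns come from libraries outside these 8, and 3 DiffBind concentration columns were not used. Levels fell with region width (Spearman rho -0.22 for H3K27ac, -0.56 for H3K4me1 over all regions), so levels were compared within a region.

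Differences of pooled values were computed with Python 3.11.15, pandas 2.3.3 and numpy 2.4.6 (figures with matplotlib 3.10.9) over regions above 0 in all 4 groups, and the counting steps were tested on simulated data. A 2-fold difference (log2 of 1) is a call with no test; the planned count-based tests need library values and were not run. Per gene, the promoters, the region with the smallest adjusted p in WT, and the region with the largest DKO against WT difference in each state are named, with other regions named after their values were seen. Of other Polycomb genes, up to 3 called promoters per direction and comparison with the largest difference are named. TSSs came from the GENCODE basic annotation and sequences from RefSeq (GRCm38.p6). Members and lists were chosen with earlier results of these data known. The alternatives were 3 scalings, 50 kb, other thresholds and regions at 0 kept.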

Additional observations from a re-analysis of the deposited data

How the results depend on the processing

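No paired analysis was possible because the table gives 1 pooled value per group; leaving out a replicate was not run for the same reason. Calls at single regions can end under another scaling, as at the Ezh2, Rnf2 and Suz12 promoters above. Shares of all regions were counted as deposited only, so counts under another scaling or threshold have no such share beside them. In the WT transition, a 2-fold rule on pooled values gave 22 rises in place of 11, and the median of -0.48 was -0.96 centred on all regions, -0.17 centred on promoters, -0.92 after quantile normalization and -0.63 within 50 kb. From naive to formative DKO, centring on promoters gave 14 higher and 16 lower regions and a median of -0.02, quantile normalization 16 lower, and a log2 threshold of 1.5 gave 1 higher and 8 lower. In naive cells DKO against WT gave 9 higher, 36 lower and a median of -0.51 centred on promoters, 10 higher at 1.5, and medians of 0.16 centred on all regions and 0.24 after quantile normalization. In formative cells it gave 54 higher, 5 lower and a median of 0.88 centred on all regions; 62, 5 and 1.07 after quantile normalization; 6, 37 and -0.54 centred on promoters; and 11 and 6 at 1.5. The Jarid2 medians in formative cells (upstream 0.14, introns 0.62) were -0.65 and -0.16 centred on promoters. Centring on promoters moved the median of all regions from 0.48 to 0.79 in the WT transition, from -0.10 to -0.68 for naive and from -0.63 to -1.42 for formative DKO against WT. The cause of these shifts was not tested. With no depth in the columns used, narrow regions with large differences cannot be weighed by their counts.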
